A study of Mus musculus with 6 samples.

Results

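The genes described here encode the E2F transcription factors, E2f1 to E2f8, and the pocket proteins Rb1 and Rbl1. They were chosen by name: 10 gene symbols were matched to the symbols in the count table, which makes 10 of the 21240 genes counted. All 10 passed the filter of 2 CPM (counts scaled to library size) or more in at least 2 libraries and are among the 11080 genes tested. Rbl2, the remaining pocket protein gene, is given beside them for comparison.

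RNA was sequenced from NMuMG cells, a line from the mammary gland of the mouse, in 3 groups with 2 biological replicates each, 6 libraries in all. All cells were first kept for 6 h in medium lacking serum and insulin. They were then given TGFβ1 at 5 ng/ml for 2 h (the 2 h libraries), TGFβ1 at the same dose for 12 h (the 12 h libraries), or the albumin-containing solvent for 2 h (vehicle). The libraries held between 14705886 (vehicle replicate 2) and 23786993 (12 h replicate 1) counted reads. Vehicle was collected at 2 h alone, so in 12 h against vehicle the treatment and a longer time without serum cannot be told apart.

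The libraries carried several epithelial transcripts at high levels, although not all of them. E-cadherin (Cdh1) ranged from 338 to 609 CPM, and the keratins Krt8, Krt18 and Krt19 from 420.4 to 6249 CPM. Epcam, by contrast, had only 2 to 16 counts a library, Cldn7 had counts in 1 of the 6 libraries (7 counts in 2 h replicate 2) and Cldn3 had 1 count in the same library. Of the epithelial list 4 of 7 genes were tested, with Krt18 the most abundant. The list summed to 5784 and 4964 CPM with vehicle, 6444 and 6479 CPM after 2 h and 10327 and 10375 CPM after 12 h. By edgeR Krt8 (log2 fold change 1.63, adjusted p 0.000114) and Krt18 (1.53, adjusted p 0.000275) rose at 12 h and Krt19 fell (-1.95, adjusted p 0.000103).

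Markers of other cell types were low. None of 5 endothelial markers (Cdh5 the most abundant) and none of 4 adipocyte markers (Fabp4 the most abundant, summed level 0 to 0.202 CPM, Lep at 0 in every library) had enough counts to be tested. Of 6 leukocyte markers only Cd68 was tested (summed level 5.32 to 7.71 CPM), and Cd3e was at 0 in every library. Of 8 fibroblast and smooth muscle markers 2 were tested, with Col1a1 the most abundant. That list summed to 5.59 and 4.21 CPM with vehicle, 10.9 and 9.84 CPM after 2 h and 17.6 and 15.7 CPM after 12 h, so it moved with treatment, as did the epithelial list. The endothelial list summed to 0.412 and 0.446 CPM with vehicle, 0.658 and 0.555 CPM after 2 h and 1.96 and 2.21 CPM after 12 h, also higher with treatment. The part of these lists in the results below was not tested.

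E2F proteins bind DNA as dimers with a DP partner and switch genes for DNA replication and mitosis on or off as cells pass through the division cycle. In resting cells pocket proteins hold E2F proteins in repressive complexes, and cyclin-dependent kinases release them by phosphorylating the pocket. In epithelial cells TGFβ is known for halting the cycle in G1, in part through kinase inhibitors and through repression by E2F4, E2F5 and the pocket proteins.

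Comparing 2 h of TGFβ1 with vehicle asks which of these genes respond early. With edgeR's quasi-likelihood test and a Benjamini-Hochberg adjusted p under 0.05 over the 11080 genes, 0 of the 10 members were called higher, where 9.91% of all genes tested were called higher. By unadjusted p under 0.05 that count was 2, with limma-voom 0 and with DESeq2 1. Called lower were 2 members, E2f2 and E2f5, where 5.25% of all genes were. The median log2 fold change of the 10 was -0.38, against -0.01 over all genes tested. The p-values here set a difference between groups against the spread between biological replicates. Each group had 2 replicates, and the spread was estimated over the 3 groups together.

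Comparing 12 h of TGFβ1 with vehicle asks what the longer exposure brings. Called higher were 2 of the 10 members, E2f3 and E2f4, a share close to the 21.8% of all genes called higher by edgeR. Called lower were 5, namely E2f1, E2f2, E2f7, E2f8 and Rbl1, where 21.5% of all genes were called lower. The median log2 fold change was -0.74 for the members and 0.02 for all genes. The comparison shares its vehicle libraries with the 2 h comparison. Both counts changed when single libraries were left out, which leaves 1 library in a group and takes the spread from the other groups. Without 12 h replicate 2 the log2 fold changes were 0.85 for E2f3 and 0.53 for E2f4, against 0.84 and 0.66 with all libraries. The count called higher fell to 0 without 12 h replicate 2 and to 1 without either vehicle library or 12 h replicate 1, and the count called lower fell to 3 without vehicle replicate 2 or 12 h replicate 1.

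Comparing 12 h with 2 h asks which changes came between the time points. Called higher was 1 member, E2f5, where 15.2% of all genes were, and called lower were 3, E2f2, E2f7 and E2f8, where 18.9% of all genes were. The member called higher was lost without 12 h replicate 1. The median log2 fold change was -0.42 for the members and 0.01 for all genes.

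Scaling by total counts in place of TMM factors shifted the medians of all genes to -0.12 at 2 h and -0.11 at 12 h against vehicle. At 2 h the split over all genes moved from 1098 higher and 582 lower to 854 and 975, and at 12 h from 2414 and 2385 to 1830 and 3047. Which of these scales is nearer the RNA content of the cells was not tested.

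**Figure D1:**
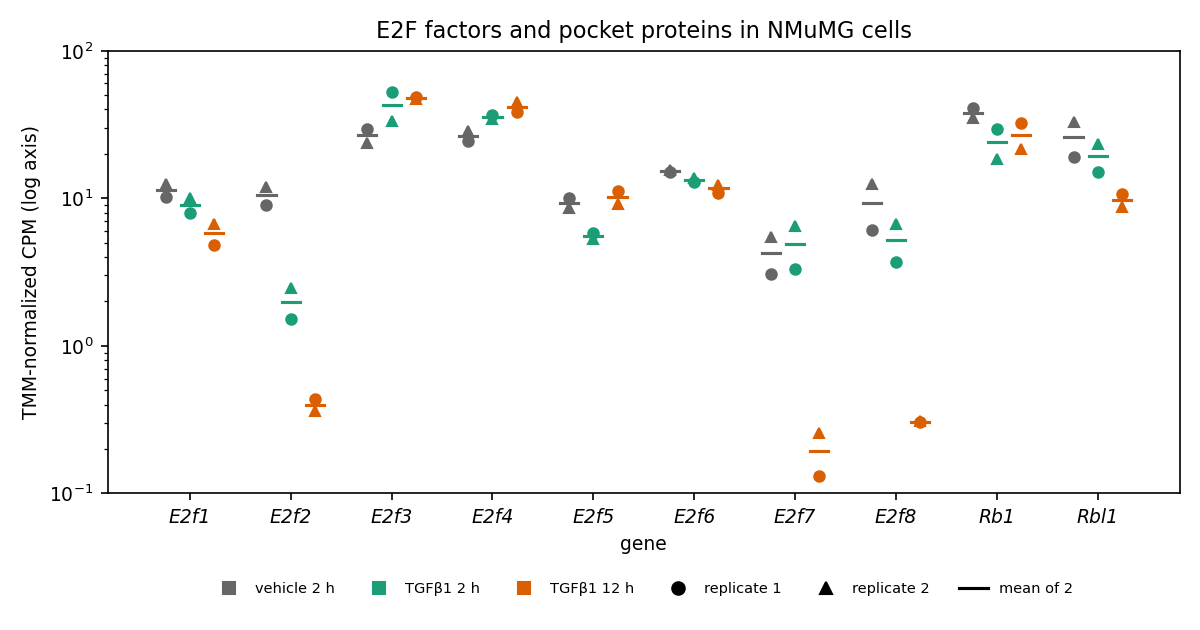
CPM of each member (vertical axis, logarithmic) in the 6 libraries, grouped as vehicle, 2 h and 12 h of TGFβ1, with a point for each library. E2f2, E2f7 and E2f8 lie below 0.5 CPM in both 12 h libraries.

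E2f1 encodes an activator that drives genes needed for entry into S phase (Entrez 13555, chr2:154385143-154395628 of NCBIM37, minus strand). It had 10.2 and 12.5 CPM with vehicle, 7.998 and 9.99 CPM after 2 h, and 4.84 and 6.73 CPM after 12 h. Both 12 h libraries lay below all the others, and the 2 h libraries lay just below vehicle, with no overlap between groups. E2f1 fell at 12 h by edgeR (log2 fold change -0.98, standard error 0.238, adjusted p 0.0162). Across the 14 alternative analyses the adjusted p ran from 0.000805 to 0.0982, and the call was lost without vehicle replicate 2 (-0.83, adjusted p 0.0880) and without 12 h replicate 1 (-0.77, adjusted p 0.0982). At 2 h the value was -0.34 (standard error 0.234, adjusted p 0.387), and 12 h against 2 h gave -0.64 (standard error 0.238, adjusted p 0.0807). In RNA from whole cultures, fewer cells carrying a transcript and less of it in each cell cannot be told apart.

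E2f2, an activator close to E2f1 in structure (Entrez 242705, chr4:135728309-135751972, plus strand), was the member with a large early change. Its levels were 8.95 and 12.0 CPM with vehicle, 1.52 and 2.47 CPM after 2 h, and 0.436 and 0.360 CPM after 12 h. The vehicle libraries stood far above the 2 h libraries and these above the 12 h libraries, with no overlap at either step. E2f2 fell at 2 h (log2 fold change -2.39, standard error 0.309, adjusted p 0.00420) and at 12 h (-4.69, standard error 0.373, adjusted p 0.000196) by edgeR, and both calls were kept in the 13 of 14 alternatives that tested the gene. It was not tested where at least 10 counts were asked of every library.

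E2f2 also fell between the time points by edgeR (12 h against 2 h, log2 fold change -2.30, standard error 0.393, adjusted p 0.00577). Over the alternatives the adjusted p of that step ran from 0.000150 to 0.0528, and the call was lost without 12 h replicate 2 (-2.18, adjusted p 0.0528). The 12 h libraries held just 10 and 7 reads of E2f2, against 152 and 188 with vehicle and 30 and 49 at 2 h. From the summed counts of 340 and 17 reads, vehicle exceeded 12 h 26.0-fold with a 95% interval of 15.98 to 45.1, which covers counting error alone.

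E2f3 completes the activators (Entrez 13557, chr13:29998444-30077537, minus strand) and moved the other way. It had 29.6 and 23.8 CPM with vehicle, 52.8 and 33.4 CPM after 2 h, and 48.6 and 47.4 CPM after 12 h. All treated libraries lay above both vehicle libraries, and the 2 h libraries were widely spread around the 12 h libraries. E2f3 rose at 12 h by edgeR (log2 fold change 0.84, standard error 0.227, adjusted p 0.0234), with an adjusted p between 0.00102 and 0.122 over the alternatives. The call was lost without vehicle replicate 2 (0.69, adjusted p 0.119), without 12 h replicate 1 (0.81, adjusted p 0.122) and without 12 h replicate 2 (0.85, adjusted p 0.109).

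At 2 h E2f3 missed the threshold of edgeR's test (log2 fold change 0.69, standard error 0.227, adjusted p 0.0955). It was past it with DESeq2 (0.68, adjusted p 0.0468) and without 2 h replicate 2, the lower of the pair (0.98, adjusted p 0.00754), and over the alternatives its adjusted p ran from 0.00754 to 0.319. Between 2 h and 12 h the value was 0.16 (adjusted p 0.620), and it turned negative (-0.14) without 2 h replicate 2. The activators thus split by direction at 12 h: E2f1 and E2f2 fell and E2f3 rose.

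**Figure D2:**
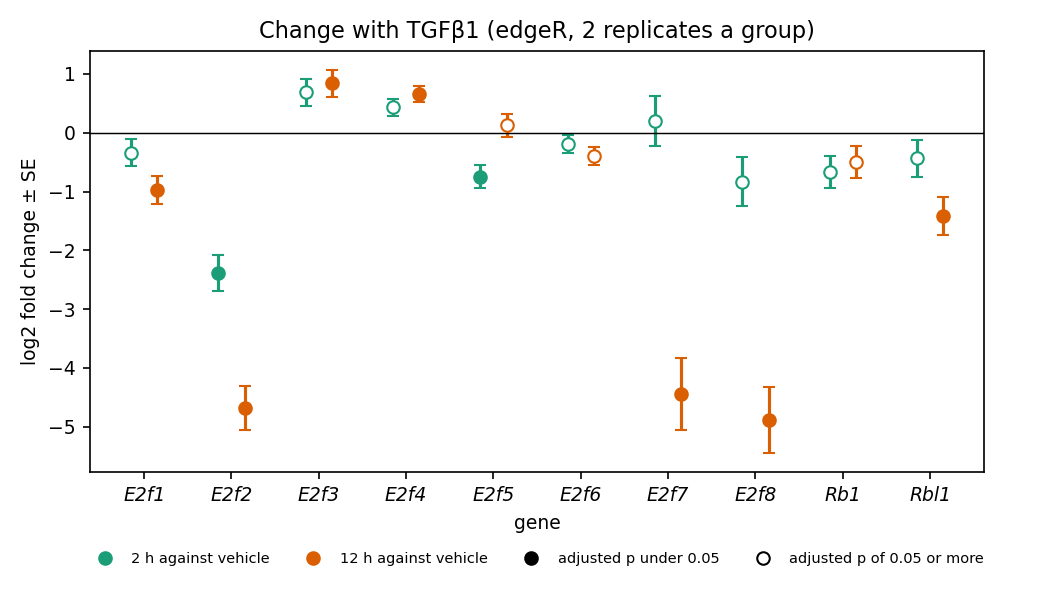
Log2 fold change against vehicle at 2 h and at 12 h for each member (vertical axis, with standard error bars from edgeR, 2 replicates a group), filled where the adjusted p is under 0.05. E2f2 is filled below 0 at both times, whereas E2f7 and E2f8 are filled at 12 h only.

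E2f4 encodes a repressor that works with all pocket proteins and lacks a nuclear localization signal of its own (Entrez 104394, chr8:107821563-107829269, plus strand). It had 24.3 and 28.7 CPM with vehicle, 36.8 and 34.7 CPM after 2 h, and 38.6 and 44.9 CPM after 12 h. Both vehicle libraries lay below every treated library, and the 12 h libraries lay above the 2 h libraries. E2f4 rose at 12 h by edgeR (log2 fold change 0.66, standard error 0.140, adjusted p 0.00952; 0.00118 to 0.0800 over the alternatives). The call was lost without vehicle replicate 1 (0.53, adjusted p 0.0671) and without 12 h replicate 2 (0.53, adjusted p 0.0800). At 2 h the value was 0.43 (standard error 0.140, adjusted p 0.0904), and between the time points 0.22 (adjusted p 0.253).

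E2f5, which encodes the other repressor that depends on pocket proteins (Entrez 13559, chr3:14578671-14606308, plus strand), had a dip at 2 h. Its levels were 10.1 and 8.61 CPM with vehicle, 5.82 and 5.30 CPM after 2 h, and 11.2 and 9.14 CPM after 12 h. The 2 h libraries lay below all others, and the vehicle and 12 h libraries overlapped. By edgeR E2f5 was lower at 2 h (log2 fold change -0.75, standard error 0.197, adjusted p 0.0496), a call at the edge of the threshold. Over the alternatives its adjusted p ran from 0.0100 to 0.245, and the call was kept in 5 of 14.

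Leaving out any library lost the 2 h call of E2f5 in edgeR. The values were -0.63 (adjusted p 0.245) without vehicle replicate 1, -0.86 (adjusted p 0.118) without vehicle replicate 2, -0.84 (adjusted p 0.0603) without 2 h replicate 1 and -0.68 (adjusted p 0.145) without 2 h replicate 2. Without 12 h replicate 1 or 2 the value stayed at -0.75, with adjusted p 0.0937 and 0.0904. Between 2 h and 12 h E2f5 rose by 0.87 on the log2 scale (standard error 0.195, adjusted p 0.0152; 0.00216 to 0.113 over the alternatives), a call kept in 13 of 14 and lost without 12 h replicate 1 (0.71, adjusted p 0.113). At 12 h against vehicle it stood at 0.12 (standard error 0.192, adjusted p 0.635), a value that turned to -0.04 without 12 h replicate 1.

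E2f6 encodes a repressor that binds no pocket protein and acts with Polycomb proteins (Entrez 50496, chr12:16817771-16833549, plus strand). It was the steadiest of the E2F genes, with 15.1 and 15.5 CPM with vehicle, 12.9 and 13.8 CPM after 2 h, and 10.9 and 12.4 CPM after 12 h. The 2 h libraries lay below the vehicle libraries and the 12 h libraries below the 2 h libraries, without overlap and over a narrow span. None of its changes passed edgeR's test: -0.20 at 2 h (adjusted p 0.431), -0.39 at 12 h (standard error 0.1496, adjusted p 0.0757) and -0.20 between the time points (adjusted p 0.351). Under total counts the 12 h value was past the threshold (-0.52, adjusted p 0.0353, within 0.0353 to 0.275 over the alternatives).

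E2f7 and E2f8 encode the atypical E2F proteins, which carry a pair of DNA binding domains, need no DP partner and repress E2F target genes late in S phase. E2f7 (Entrez 52679, chr10:110182495-110224440, plus strand) had 3.06 and 5.48 CPM with vehicle, 3.29 and 6.51 CPM after 2 h, and 0.131 and 0.257 CPM after 12 h. The vehicle and 2 h libraries overlapped, and both 12 h libraries were far below them. E2f7 fell at 12 h against vehicle (log2 fold change -4.44, standard error 0.615, adjusted p 0.00167) and against 2 h (-4.65, standard error 0.608, adjusted p 0.00219) by edgeR. Its 12 h libraries held 3 and 5 reads, against 52 and 86 with vehicle and 65 and 129 at 2 h. The summed counts of 138 and 8 put vehicle 22.4-fold above 12 h, with a counting interval of 11.1 to 52.9. The 2 h value was 0.20 (standard error 0.431, adjusted p 0.794), and it changed sign without vehicle replicate 1 (-0.16) and without 2 h replicate 2 (-0.37).

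E2f8 (Entrez 108961, chr7:56121799-56136966, minus strand) followed a similar course. It had 6.12 and 12.4 CPM with vehicle, 3.70 and 6.71 CPM after 2 h, and 0.305 and 0.308 CPM after 12 h. The vehicle and 2 h libraries overlapped, since 2 h replicate 2 lay above vehicle replicate 1, and the 12 h libraries were close together below all the others. E2f8 fell at 12 h against vehicle (log2 fold change -4.89, standard error 0.555, adjusted p 0.000730) and against 2 h (-4.06, standard error 0.560, adjusted p 0.00265) by edgeR. Without vehicle replicate 2 the 12 h value was -4.30 (adjusted p 0.00202, within 1.14e-13 to 0.0162 over the alternatives), which is more than 1.5-fold smaller as a ratio. Counts of E2f8 were 104 and 195 with vehicle, 73 and 133 at 2 h, and 7 and 6 at 12 h, and the summed 299 and 13 gave a 29.9-fold ratio with a counting interval of 17.2 to 56.7. After 2 h the value was -0.83 (standard error 0.411, adjusted p 0.235), and it ranged from -1.32 without 2 h replicate 2 to -0.24 without vehicle replicate 2.

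Both atypical genes differed between replicates. The replicate 2 library had more E2f7 CPM than replicate 1 in each group, by ratios of 1.79 (vehicle), 1.98 (2 h) and 1.96 (12 h). For E2f8 the ratios were 2.03, 1.82 and 1.01. At 12 h these ratios rest on only 3 and 5 reads of E2f7 and 7 and 6 reads of E2f8. A list of 25 genes of G2 and mitosis also differed between replicates with vehicle and at 2 h, with summed levels of 1428 and 2874 CPM with vehicle, 1456 and 2758 CPM after 2 h, and 88.9 and 94.2 CPM after 12 h. The ratio of replicate 2 to replicate 1 for that list was 2.01 with vehicle, 1.89 at 2 h and 1.06 at 12 h. Without vehicle replicate 2 the log2 fold changes at 12 h were -3.97 for E2f7, -4.30 for E2f8 and -0.96 for Rbl1.

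Rb1 encodes the retinoblastoma protein, which binds the activator E2F proteins and recruits corepressors (Entrez 19645, chr14:73583480-73725629, minus strand). It had 40.9 and 35.2 CPM with vehicle, 29.5 and 18.4 CPM after 2 h, and 32.2 and 21.6 CPM after 12 h. Both vehicle libraries lay above every treated library, and the treated groups overlapped, with replicate 2 the lower library in each. By edgeR Rb1 was not called at 2 h (log2 fold change -0.67, standard error 0.274, adjusted p 0.162), at 12 h (-0.50, standard error 0.272, adjusted p 0.186) or between the time points (0.17, adjusted p 0.659). Without 2 h replicate 1 the 2 h value passed the threshold (-1.06, adjusted p 0.0302, within 0.00527 to 0.442 over the alternatives). The value between time points turned negative without 2 h replicate 2 (-0.13) and without 12 h replicate 1 (-0.16).

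Rbl1 encodes p107, the pocket protein that is made mostly in cycling cells and binds E2F4 and E2F5 (Entrez 19650, chr2:156971629-157030270, minus strand). It had 18.9 and 33.0 CPM with vehicle, 15.2 and 23.3 CPM after 2 h, and 10.7 and 8.68 CPM after 12 h. The vehicle and 2 h libraries overlapped, with replicate 2 the higher in both groups, and the 12 h libraries lay below them all. Rbl1 fell at 12 h by edgeR (log2 fold change -1.42, standard error 0.324, adjusted p 0.0126; 0.000159 to 0.0970 over the alternatives). The call was lost without vehicle replicate 2 (-0.96, adjusted p 0.0579), without 12 h replicate 1 (-1.59, adjusted p 0.0601) and without 12 h replicate 2 (-1.28, adjusted p 0.0970).

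At 2 h Rbl1 stood at -0.43 (standard error 0.315, adjusted p 0.410) by edgeR, and without vehicle replicate 2 at 0.02. Between 2 h and 12 h it was just short of the threshold (-0.98, standard error 0.322, adjusted p 0.0558, 0.0101 to 0.25 over the alternatives), and 7 of the 14 alternatives called it lower. Rbl2, which encodes p130, the pocket protein of resting cells (chr8:93593956-93647743, plus strand), had 79.4 and 77.9 CPM with vehicle, 64.8 and 56.3 CPM after 2 h, and 64.4 and 61.7 CPM after 12 h. Its vehicle libraries lay above all treated libraries, but edgeR called neither the 2 h value (-0.38, standard error 0.108, adjusted p 0.0640) nor the 12 h value (-0.32, standard error 0.108, adjusted p 0.0526). Rbl2 at 12 h was called lower in 7 of 14 alternatives (adjusted p 0.0125 to 0.212), and DESeq2 called it lower at both times. The fold changes of Rb1, Rbl1 and Rbl2 were not compared with each other by a test.

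Exons of E2f8, Rb1 and Rbl2 overlap exons of genes on the opposite strand (Gm2788 for E2f8, Lpar6 and Rcbtb2 for Rb1, Aktip for Rbl2). Counting used the strand of the reads. No member shares exon sequence with another gene on its own strand.

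Levels of different genes were compared as RPKM (CPM divided by the length in kilobases of the union of each gene's exons), and the means below are over 2 libraries. With vehicle E2f4 had the highest mean level, 13.3 RPKM, followed by Rbl2 at 11.3, Rb1 at 6.32, E2f6 at 6.23, E2f3 at 5.58 and E2f5 at 5.34 RPKM. Below them came Rbl1 at 4.33, E2f1 at 3.60, E2f2 at 2.14, E2f8 at 1.70 and E2f7 at 0.474 RPKM. Neighbours in this order overlapped from Rb1 down to E2f1 and for E2f2 and E2f8, so the order within those stretches was not resolved by the replicates.

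At 2 h the mean levels ran from E2f4 at 18.0 RPKM through E2f3 at 8.99, Rbl2 at 8.70, E2f6 at 5.44, Rb1 at 3.98, Rbl1 at 3.21, E2f5 at 3.18 and E2f1 at 2.85 to E2f8 at 0.955, E2f7 at 0.544 and E2f2 at 0.409 RPKM. E2f2 thus had the lowest mean. At this time E2f3 overlapped Rbl2 in level, neighbours overlapped from Rb1 to E2f1, and E2f8, E2f7 and E2f2 overlapped as neighbours. At 12 h E2f4 led at 21.0 RPKM, with E2f3 at 10.0, Rbl2 at 9.06, E2f5 at 5.82, E2f6 at 4.75, Rb1 at 4.48, E2f1 at 1.83 and Rbl1 at 1.62 RPKM. E2f2 at 0.0815, E2f8 at 0.0563 and E2f7 at 0.0215 RPKM formed the bottom of the order. At 12 h the neighbours E2f6 and Rb1 overlapped, and so did E2f1 and Rbl1, while the remaining neighbours did not. The levels at the bottom rest on few reads: 10 and 7 of E2f2, 7 and 6 of E2f8, and 3 and 5 of E2f7. Counting error was not part of this comparison of neighbours, so the order of these genes is not settled by it.

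Read as shares of the summed E2F RPKM, the pocket-dependent repressors held more at 12 h, and E2f6 and the atypical genes held less. E2f4 and E2f5 made up 48.7% and 48.5% of it with vehicle, 52.0% and 52.9% at 2 h, and 61.3% and 61.8% at 12 h. The groups were ordered without overlap. The atypical E2f7 and E2f8 made up 3.98% and 7.24% with vehicle, 2.49% and 5.06% at 2 h, and 0.168% and 0.189% at 12 h, with both 12 h libraries far below the rest. The activators E2f1, E2f2 and E2f3 held 30.6% and 28.5% with vehicle, 33.0% and 27.5% at 2 h, and 27.9% and 26.9% at 12 h. These groups lay close together. The 2 h libraries spanned the vehicle libraries, and both 12 h libraries lay below both vehicle libraries. E2f6 went from 16.7% and 15.8% with vehicle to 12.5% and 14.5% at 2 h and 10.6% and 11.2% at 12 h. The summed E2F level itself was 36.8 and 39.9 RPKM with vehicle, 42.0 and 38.7 RPKM at 2 h, and 42.1 and 45.0 RPKM at 12 h. These shares were not tested.

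Among the pocket protein genes, Rbl2 held the largest share of the summed RPKM of Rb1, Rbl1 and Rbl2 in every library, from 49.6% (vehicle replicate 2) to 63.7% (12 h replicate 2). Rbl1 held 14.8% and 24.4% with vehicle, 15.1% and 25.8% at 2 h, and 10.9% and 10.4% at 12 h. Its 12 h shares lay below all others, and replicate 2 was the higher with vehicle and at 2 h. Rb1 held 31.8% and 25.9% with vehicle, 29.3% and 20.4% at 2 h, and 32.7% and 25.8% at 12 h, with overlapping groups.

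**Figure D3:**
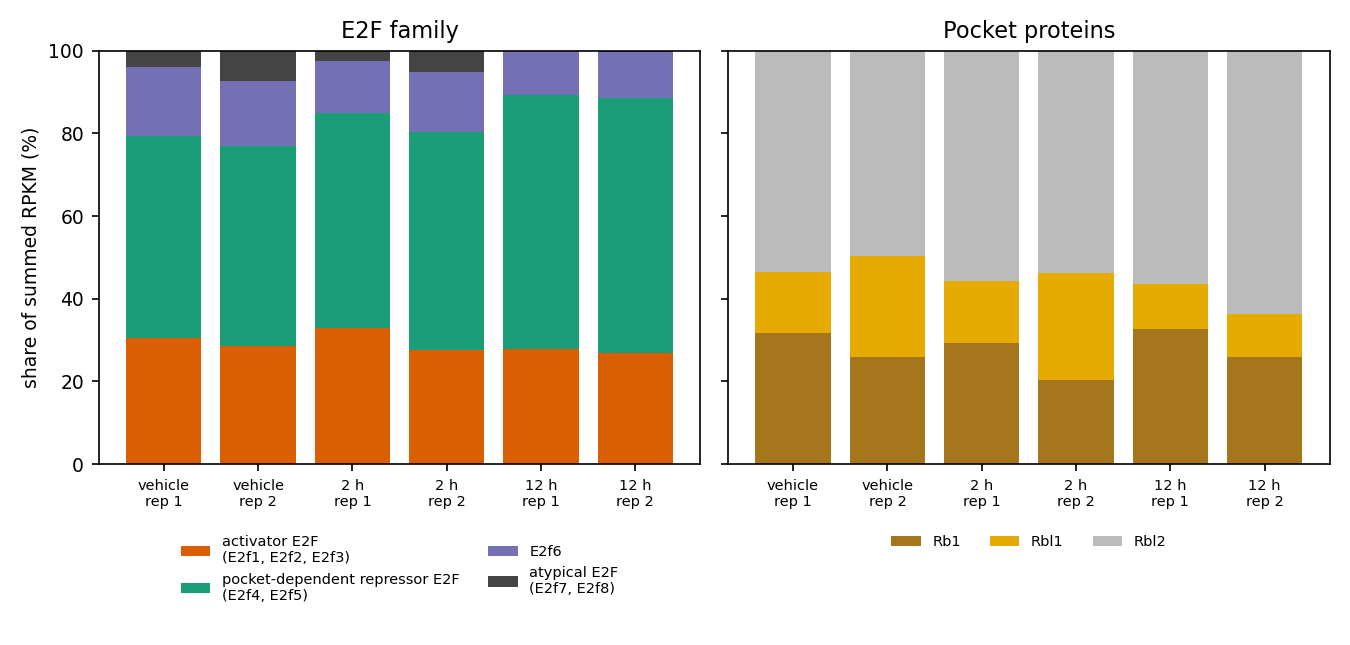
Share of the summed RPKM (vertical axis, percent) held by each class of E2F gene and by each pocket protein gene in the 6 libraries. E2f4 and E2f5 together run from 48.5% with vehicle to 61.8% at 12 h, and E2f7 and E2f8 drop to 0.168% and 0.189%.

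For the 3 members with the smallest adjusted p at 12 h, the genes nearest in pattern were sought among all tested genes other than the members, by the root mean square difference of centred log2 CPM (0.25 CPM added) over the 6 libraries. Nearest to E2f2 were Ppargc1a (0.368 log2 units), Lrrc14b (0.382) and Arhgap32 (0.395). Nearest to E2f7 were Knstrn (0.0717), Cdc25b (0.113) and Ccnf (0.128), and nearest to E2f8 were Ckap2 (0.215), Ercc6l (0.219) and Kif20b (0.24). By this measure the neighbours of E2f7 lay closer to it than those of E2f2 did to E2f2. The 0.25 CPM added is near the 12 h levels of E2f7 (0.131 and 0.257 CPM) and shrinks its fall. The edgeR log2 fold change at 12 h was -4.44 for E2f7, against -3.37 for Knstrn, -3.51 for Cdc25b and -3.50 for Ccnf.

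The partners and regulators of these proteins were counted in lists, whose counts stand beside the shares of all genes tested that were called: 9.91% higher and 5.25% lower at 2 h, 21.8% higher and 21.5% lower at 12 h. Neither DP gene, Tfdp1 or Tfdp2, was called at 2 h or 12 h by edgeR (0 of 2 in each direction, also 0 by unadjusted p under 0.05, with limma-voom and with DESeq2), and their median log2 fold change was 0.12 at 2 h and 0.15 at 12 h. Of 6 genes of the MuvB core and the MYB proteins that join it, 3 were called lower at 12 h: Mybl2 (-2.53, adjusted p 0.0169), Lin54 (-1.36, adjusted p 0.00298) and Lin9 (-0.98, adjusted p 0.0226). Mybl2 lost its call without vehicle replicate 2 (-1.88) and without 12 h replicate 1 (-2.004) and moved to -3.30 without 12 h replicate 2. Lin9 lost its call without vehicle replicate 2 (-0.71) and without 12 h replicate 2 (-0.73). The count of 3 fell to 1 without vehicle replicate 2.

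Of 10 genes of the E2F6 complex, 2 (a share near the background) were called higher at 12 h by edgeR, Wdr5 (log2 fold change 0.77, adjusted p 0.000840) and Max (0.75, adjusted p 0.00404), and 0 lower (1 by unadjusted p under 0.05, 0 with limma-voom and 1 with DESeq2). Of 12 corepressors of pocket proteins, Smarca4 (0.39, adjusted p 0.0288) was called higher and Smarca2 (-0.84, adjusted p 0.00921) and Arid4a (-0.46, adjusted p 0.0352) lower at 12 h. These calls were lost without vehicle replicate 2 (0.48 for Smarca4, -0.83 for Smarca2, -0.33 for Arid4a) and without 12 h replicate 1 (0.38, -0.82 and -0.36), those of Smarca4 and Arid4a also without 12 h replicate 2 (0.38 and -0.59), and that of Smarca4 without vehicle replicate 1 (0.29) and under total counts (0.26).

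Of 9 cyclins and kinases that act on pocket proteins, 5 were called lower at 12 h by edgeR: Ccna2 (-6.13, adjusted p 0.000241), Ccne2 (-2.38, adjusted p 0.00108), Ccnd2 (-1.64, adjusted p 0.000508), Cdk6 (-0.69, adjusted p 0.00259) and Ccnd1 (-0.52, adjusted p 0.0232). Ccna2 moved to -5.53 without vehicle replicate 2. Ccnd1 lost its call without vehicle replicate 1 (-0.45), vehicle replicate 2 (-0.59), 12 h replicate 1 (-0.56) or 12 h replicate 2 (-0.50). Of 5 kinase inhibitor genes tested from a list of 7, Cdkn2b (2.07, adjusted p 0.000342) and Cdkn2a (1.01, adjusted p 0.00329) were called higher and Cdkn2c lower (-2.58, adjusted p 0.000228) at 12 h. Cdkn1a (0.43, adjusted p 0.0556) and Ccne1 (-1.93, adjusted p 0.0954) were not called at 12 h by edgeR. Over the alternatives their adjusted p was as low as 0.0130 and 0.0142. Ccne1 was tested in 10 of the 14 alternatives and moved to -2.64 without vehicle replicate 1. Of 7 genes for the turnover of E2F and pocket proteins, Ccnf was called lower (-3.50, adjusted p 0.00238, and -2.885 without vehicle replicate 2) and Mdm2 higher (0.39, adjusted p 0.0257), the latter not without vehicle replicate 2 (0.28), 12 h replicate 1 (0.39) or 12 h replicate 2 (0.36), nor under total counts (0.26). Called lower at 2 h were 3 of the 9 cyclins and kinases, Ccne2 (-1.38, adjusted p 0.0218), Ccnd2 (-0.70, adjusted p 0.0349) and Ccnd1 (-0.53, adjusted p 0.0499). That count ran from 0 to 4 over the alternatives and was 0 without vehicle replicate 2 or without either 12 h library, 1 without vehicle replicate 1 or 2 h replicate 2, and 2 without 2 h replicate 1.

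Target genes were taken as 40 genes of G1 and S phase and 25 of G2 and mitosis, with Ccne1, Ccne2 and Cdc25a also in other lists. By edgeR 24 of the 40 were called lower at 12 h, with a median log2 fold change of -1.46. All 25 genes of G2 and mitosis were called lower, with a median of -5.23. Over the alternatives these counts ran from 17 to 29 and from 23 to 25. The counts called lower at 2 h, where 5.25% of all genes were, were 3 of 40 and 0 of 25 (also 0 of the 25 by unadjusted p under 0.05, with limma-voom and with DESeq2), with medians of -0.11 and -0.02. The 3 were Ccne2 and, named after their values were seen, Brca1 and Usp1. Without vehicle replicate 2 all 3 lost their calls (-1.04, -0.63 and -0.62), Usp1 also without vehicle replicate 1 (-0.72) and Ccne2 also without either 12 h library (-1.38 in both).

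By edgeR the largest falls at 12 h among the 40 were in Tk1 (log2 fold change -5.02), Mcm5 (-4.11) and Cdc6 (-3.93), and among the 25 in Nusap1 (-6.68), Bub1 (-6.19), Birc5 (-6.09) and Cdc25c (-6.02). All of these kept their calls with any library left out. Without vehicle replicate 2 the values of Tk1, Cdc6, Birc5 and Cdc25c were -4.31, -3.23, -5.32 and -5.40. Without 12 h replicate 2 Nusap1 moved to -7.28 and Cdc25c to -6.72.

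**Figure D4:**
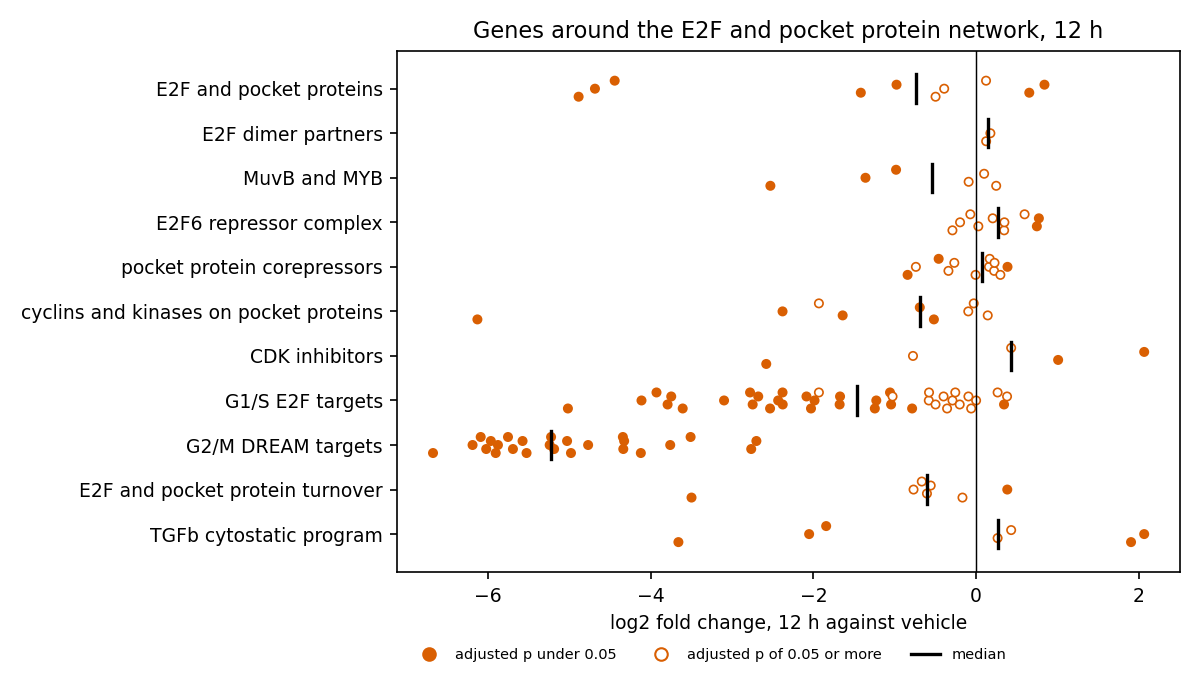
Log2 fold change at 12 h against vehicle (horizontal axis) for each tested gene of the members and of 10 lists of partners, regulators and targets, filled where the adjusted p is under 0.05, with a bar at each median. The genes of G2 and mitosis have a median of -5.23 and the members one of -0.74.

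Of 7 genes known for the cytostatic response to TGFβ, 2 were called higher and 3 lower at 12 h. At 2 h edgeR called 2 higher and 2 lower, where 9.91% and 5.25% of all genes were. The 2 h calls were Cdkn2b (log2 fold change 0.999, adjusted p 0.0173) and Cdc25a higher, and Id2 (-1.66, adjusted p 0.0362) and Id3 (-1.06, adjusted p 0.00494) lower. Id3 kept its 2 h call in 14 of 14 alternatives, and Id2 and Cdkn2b kept theirs in 10 of 14. Id2 fell at 12 h by edgeR (log2 fold change -3.66, adjusted p 0.000848), and so did Id3 (-2.05, adjusted p 0.0001499) and, named after its values were seen, Id1 (-1.84, adjusted p 0.000166). Called higher at 12 h by edgeR were Cdkn2b, given above, and Myc (1.91, adjusted p 0.00112). Myc had 12.5 and 21.0 CPM with vehicle, 16.2 and 18.5 CPM after 2 h, and 59.7 and 65.9 CPM after 12 h, and it rose between 2 h and 12 h (1.85, adjusted p 0.00205). Cdc25a, a phosphatase gene that E2F proteins bind, rose at 2 h (0.66, adjusted p 0.0160), a call lost without vehicle replicate 1 (0.62) or vehicle replicate 2 (0.69), and stood at 0.27 at 12 h (adjusted p 0.126).

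Sequence upstream of the start was read from a table of RefSeq windows for 7 of the 10 members, E2f1, E2f2, E2f3, E2f6, E2f7, E2f8 and Rbl1, and for Rbl2. The table used here had no window for E2f4, E2f5 and Rb1. The windows, 250 bases before to 50 after a start in the GRCm38.p6 table, were each matched exactly once in NCBIM37, whose coordinates are given. They were searched on both strands for E2F motifs (TTTCCCGC, TTTCGCGC, TTTGCCGC or TTTGGCGC) and for the cell cycle genes homology region (CHR, TTTGAA). Of 32851 windows, 2.26% held an E2F motif and 17.9% a CHR; of the 11384 windows of tested genes, 4.22% and 11.8% did. A match describes the letters and was not tested for binding.

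The 250 bases before the start are shown for Rbl1 (chr2:157030271-157030520, minus strand), E2f7 (chr10:110182245-110182494, plus strand) and E2f8 (chr7:56136967-56137216, minus strand), because these members fell at 12 h and hold a match there. Capitals mark the match. In Rbl1 it is TTTCGCGC, beginning 18 bases before the start, and in E2f7 TTTCCCGC read on the other strand, 198 bases before. In E2f8 it is TTTGAA read on the other strand, 20 bases before.
Rbl1: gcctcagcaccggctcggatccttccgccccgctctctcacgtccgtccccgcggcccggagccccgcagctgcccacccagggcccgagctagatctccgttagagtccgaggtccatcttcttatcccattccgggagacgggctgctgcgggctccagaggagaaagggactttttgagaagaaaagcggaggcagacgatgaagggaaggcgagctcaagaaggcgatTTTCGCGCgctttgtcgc
E2f7: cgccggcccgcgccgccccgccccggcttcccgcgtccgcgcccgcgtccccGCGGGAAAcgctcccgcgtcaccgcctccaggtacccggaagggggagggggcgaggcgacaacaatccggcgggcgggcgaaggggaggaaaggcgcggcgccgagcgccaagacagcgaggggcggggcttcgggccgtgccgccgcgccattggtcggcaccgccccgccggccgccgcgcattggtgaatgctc
E2f8: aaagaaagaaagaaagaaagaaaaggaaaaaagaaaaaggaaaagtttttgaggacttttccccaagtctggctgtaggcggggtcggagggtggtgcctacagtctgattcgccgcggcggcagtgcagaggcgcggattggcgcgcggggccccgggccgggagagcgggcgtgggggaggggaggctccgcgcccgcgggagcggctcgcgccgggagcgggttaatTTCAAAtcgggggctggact

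E2f2, the member that fell at both times, held no match in the 250 bases before its first start but held TTTGGCGC from base 40 after it, in capitals within its surroundings (window from chr4:135727939, plus strand). A second window of E2f2 (from chr4:135736447, plus strand), which overlaps an exon of the gene, held TTTGAA 31 bases before its start.
E2f2: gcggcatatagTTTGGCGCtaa

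E2f3, which rose at 12 h, also held matches: TTTGAA 23 bases and TTTCCCGC, on the other strand, 11 bases before the start of its first window on the minus strand of chromosome 13. The window of E2f1 held none of the motifs. Its start lies within the gene, so the bases before the gene were not searched. In the window of E2f6 none of the motifs was found, and in that of Rbl2 only TTTGAA, on the other strand, 201 bases before the start.

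Each comparison rests on 2 libraries a group, and leaving out 1 of them leaves a group of 1. Protein levels and protein binding were not measured here, and neither was the share of cells in each phase of the cycle.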

How the data were processed

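The counts are those deposited by the authors, who aligned reads to mm9 with subjunc, removed duplicates with SAMtools 0.1.19 and counted exons with strand. A gene was kept where 2 or more libraries reached 2 CPM (11080 genes). The 3 groups were fitted together with edgeR 4.0.16 (TMM factors, quasi-likelihood F test) in R 4.3.3, and p-values were adjusted by Benjamini-Hochberg over all genes tested. Alternatives were limma-voom (3.58.1), DESeq2 (1.42.0), DESeq2 size factors, total counts, no filter, at least 10 counts in every library, a replicate block, only the 2 groups compared, and each library left out in turn. Lists came from general knowledge of the pathway. Named list genes were those called with the largest changes at 12 h, at most 4 a list. Some were always named, and others are marked. Cell type markers were also named outside this rule. The members and lists were chosen with earlier results of these data known. RPKM used GENCODE vM1 exons. Protein motifs were not searched, since no protein reference was used here. Python 3.11.15, pandas 2.3.3 and matplotlib 3.10.9 made sequence searches and figures.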

Additional observations from a re-analysis of the deposited data

Results flagged for a closer look

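The members E2f2, E2f5, E2f7 and E2f8 differed between the 2 times of treatment by edgeR's test of 12 h against 2 h. E2f2 (log2 fold change -2.30), E2f7 (-4.65) and E2f8 (-4.06) were lower at 12 h, and E2f5 (0.87) was higher. What sets the times apart was not tested, and time without serum and time with TGFβ1 cannot be told apart here.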

How the results depend on the processing

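Of 410 repeated member values 363 kept direction and side of the threshold, 21 lost and 18 gained the call and 8 reversed; of 818 list gene values these were 719, 77, 21 and 1. Reversed were, with the other end of the range over libraries left out, E2f7 at 2 h (-0.16 without vehicle replicate 1, -0.37 without 2 h replicate 2, highest 0.68), Rbl1 at 2 h (0.022 without vehicle replicate 2, lowest -0.78), E2f5 at 12 h (-0.0044 with total counts, -0.044 without 12 h replicate 1, highest 0.25), Tfdp1 at 12 h (-0.0049 with total counts), and, for 12 h against 2 h, E2f3 (-0.14 without 2 h replicate 2, highest 0.52) and Rb1 (-0.13 without 2 h replicate 2, -0.16 without 12 h replicate 1, highest 0.55). Members called higher at 2 h were 1 with DESeq2, 2 with the replicate block and 0 to 1 with a library left out. Members called lower at 2 h were 1 with limma-voom, no filter, at least 10 counts or only 2 groups, 4 with the replicate block and 1 to 2 with a library left out. At 12 h, leaving out a library gave 0 to 2 higher and 3 to 5 lower, at least 10 counts gave 2 lower, total counts 6 and the replicate block 7. The replicate block called Rb1 lower at 2 h (-0.70, adjusted p 0.00527) and at 12 h (-0.52, adjusted p 0.00969), E2f6 lower at 12 h (-0.39, adjusted p 0.0422), E2f8 lower at 2 h (-0.82, adjusted p 0.0147), and E2f3 (0.67, adjusted p 0.00961) and E2f4 (0.44, adjusted p 0.0268) higher at 2 h. At 12 h it gave -4.42 for E2f7, -4.83 for E2f8 and -1.35 for Rbl1. Between 2 h and 12 h it called E2f1 (-0.64, adjusted p 0.0106) and Rbl1 (-0.93, adjusted p 0.0101) lower. For 12 h against 2 h, leaving out a library gave 0 to 1 higher and 2 to 4 lower, with 0 lower at 10 counts and 5 with the replicate block. The filter on 10 counts leaves E2f2, E2f7 and E2f8 untested. At 2 h all genes called were 1813 higher and 1409 lower with the replicate block, 635 and 247 with only 2 groups, and 493 to 1245 and 125 to 951 with a library left out. At 12 h against vehicle leaving out a library gave 1276 to 2705 higher and 1487 to 2779 lower, and for 12 h against 2 h 587 to 1697 and 1000 to 2119. Labels give replicates a shared number; differences between replicates correlated at 0.708, 0.263 and 0.392 between groups. With only 2 numbers this was not taken as pairing, and the block is used here alone. Apart from the untested genes and smaller groups, the cause was not tested.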
